A study of Homo sapiens with 8 samples.

Results

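The replication-dependent histone mRNAs were followed in 4 groups of HCT116 cells, an established human colorectal carcinoma line. Members were taken by name and biotype: every protein-coding gene of the authors' expression table whose symbol began with HIST1H, HIST2H, HIST3H or HIST4H. This gave 46 of 17788 listed genes, with 3 genes of linker histone H1, 13 of H2A, 13 of H2B, 7 of H3 and 10 of H4. The groups were spindle preparations of STAU1-KO cells, whole-cell input of STAU1-KO cells, spindle preparations of WT cells and whole-cell input of WT cells, with 2 libraries each. STAU1, the gene of the double-stranded RNA-binding protein Staufen1, was knocked out by CRISPR. All STAU1-KO libraries carried the code of 1 clone, so the genotype and the clone cannot be told apart. All 4 groups had the same synchronisation: 16 h in the CDK1 inhibitor RO-3306, release into 100 µM taxol for 15 min, and collection of mitotic cells by shake-off. Spindles were pelleted through glycerol after lysis in detergent, and total RNA was depleted of ribosomal RNA, so that libraries did not depend on a poly(A) tail. The series calls the replicates biological.

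Replication-dependent histone genes supply the core and linker histones that package newly made DNA, and their mRNAs accumulate in S phase. Metazoan histone mRNAs of this kind end in a conserved stem-loop in place of a poly(A) tail. The stem-loop-binding protein SLBP holds this element through processing, translation and decay, and the U7 small nuclear RNP directs the cut after it. When replication ends, the transcripts are normally tailed with uridines and degraded, so a cell in mitosis retains only a remainder of its S-phase pool.

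The stem-loops below are printed because they are the element that sets these mRNAs apart from other coding mRNAs. All 46 genes were found by symbol in the GENCODE release 29 transcripts on GRCh38. The pattern searched on the transcript strand was GG, any 2 bases, CT, any 4 bases, AG, 2 bases and CC. The 2 bases after AG had to be the reverse complement of the 2 bases after GG. The 4 middle bases are the loop and the 6 on either side form the stem. Of the 46 genes, 26 had an annotated 3′ untranslated region, and 21 of these held the pattern in it. Among 11132 other coding genes, 84 (0.755%) held it anywhere in a coding transcript. The annotated end lay within 50 bases of the stem-loop in 9 genes, while 16 genes had a transcript that ran on for more than 50 bases. The missing matches, which include HIST1H4C and HIST2H2AC, say only that these letters are not in the annotated sequence. Capitals mark the stem-loop, read 5′ to 3′ in DNA letters.
HIST1H4B: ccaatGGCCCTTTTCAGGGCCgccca
HIST1H4E: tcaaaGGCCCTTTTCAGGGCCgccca
HIST1H4J: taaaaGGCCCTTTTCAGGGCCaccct
HIST1H2AC: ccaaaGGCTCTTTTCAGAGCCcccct
HIST1H2BC: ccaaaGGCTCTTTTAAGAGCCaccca
HIST1H3H: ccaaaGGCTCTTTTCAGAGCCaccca
HIST1H3E: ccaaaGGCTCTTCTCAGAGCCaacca
HIST2H4A: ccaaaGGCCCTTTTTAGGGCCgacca

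The core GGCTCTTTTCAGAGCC was found in 11 genes, among them HIST1H2AC and HIST1H3H. The H4 genes HIST1H4B, HIST1H4E and HIST1H4J were among the 5 with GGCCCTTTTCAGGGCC. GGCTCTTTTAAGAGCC was found in 3 genes, HIST1H2BC included. A further core was held by 1 gene each: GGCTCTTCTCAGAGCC by HIST1H3E and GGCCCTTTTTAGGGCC by HIST2H4A. The members lay on chromosome 6 (36 genes), chromosome 1 (9 genes) and chromosome 12 (1 gene, HIST4H4), as the authors listed them. Their longest listed transcript had a median of 496 nt, with a range of 354 to 4137 nt, against 3458 nt for all tested coding genes. Only 1 exon was listed for 34 of them.

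The libraries held 5.21 M to 14.6 M reads on listed genes, of which 2459 to 30448 were on the histone genes. The fewest histone reads were in both WT spindle libraries. The 28S ribosomal RNA gene RNA28S5 took 46.1% of reads in WT spindle replicate 2, against 10.8% to 13.6% in the other spindle libraries, and this library had the fewest reads on coding genes. STAU1 itself stood at 4.58 and 4.88 FPKM (fragments per kilobase of transcript, relative to library depth as scaled by the authors) in STAU1-KO input, against 31.9 and 28.5 FPKM in WT input. In spindles it was 9.83 and 9.83 FPKM in STAU1-KO cells, against 11.5 and 16.2 FPKM in WT cells, and this difference did not pass the test (limma adjusted p = 0.113). All 6 epithelial markers were listed, with summed levels of 653 and 664 FPKM in STAU1-KO spindles, 1140.5 and 1092 in STAU1-KO input, 325 and 905 in WT spindles and 1477 and 1531 in WT input. None of 6 blood markers was listed, and of 6 fibroblast markers only COL1A1 was, at 0.753 to 6.69 FPKM.

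The histone mRNAs were abundant in the mitotic cells and scarcer in the spindle preparations. Their summed level was 1319 and 1379 FPKM in the 2 STAU1-KO spindle libraries and 3284 and 3037 FPKM in STAU1-KO input. It was 629.8 and 726 FPKM in WT spindles and 4164 and 2786 FPKM in WT input. Every spindle library therefore lay below every input library, and both STAU1-KO spindle libraries lay above both WT spindle libraries, while the input libraries of the 2 genotypes overlapped. The spindle-to-input ratio of the group means was 0.427 in STAU1-KO cells and 0.195 in WT cells. In bulk RNA of this kind, fewer molecules per cell and fewer cells that carry them cannot be told apart. The spindle libraries also held a lower sum of all coding FPKM, so the sums were set against it. As a share of coding FPKM, histone mRNAs made up 1.00% and 1.05% in STAU1-KO spindles, 1.52% and 1.42% in STAU1-KO input, 0.652% and 0.534% in WT spindles and 1.76% and 1.25% in WT input. The order of the groups was the same on this scale, and the spindle libraries still lay below the input libraries.

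**Figure D1:**
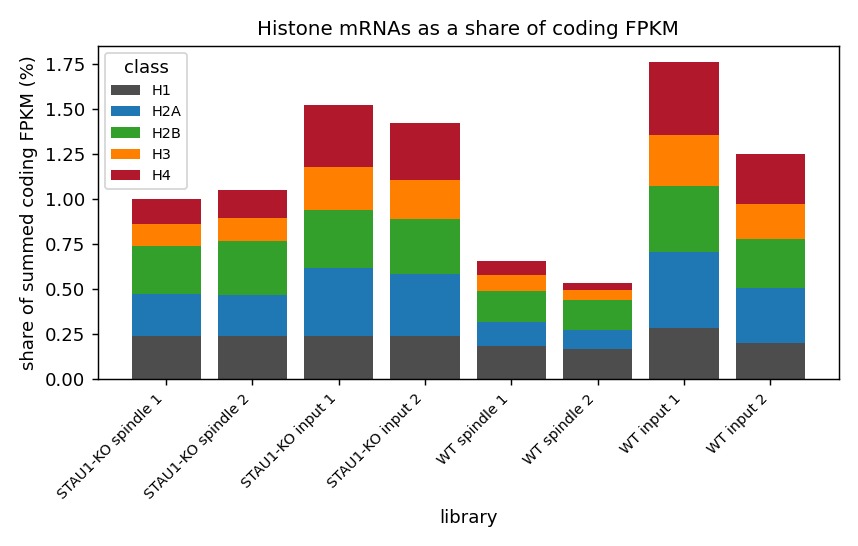
Summed FPKM of the 46 histone mRNAs as a percent of the summed FPKM of all coding genes (y axis), in each of the 8 libraries (x axis), with the H1, H2A, H2B, H3 and H4 genes stacked. The STAU1-KO spindle bars reach 1.00% and 1.05% and the WT spindle bars 0.652% and 0.534%, all below the input bars.

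**Figure D2:**
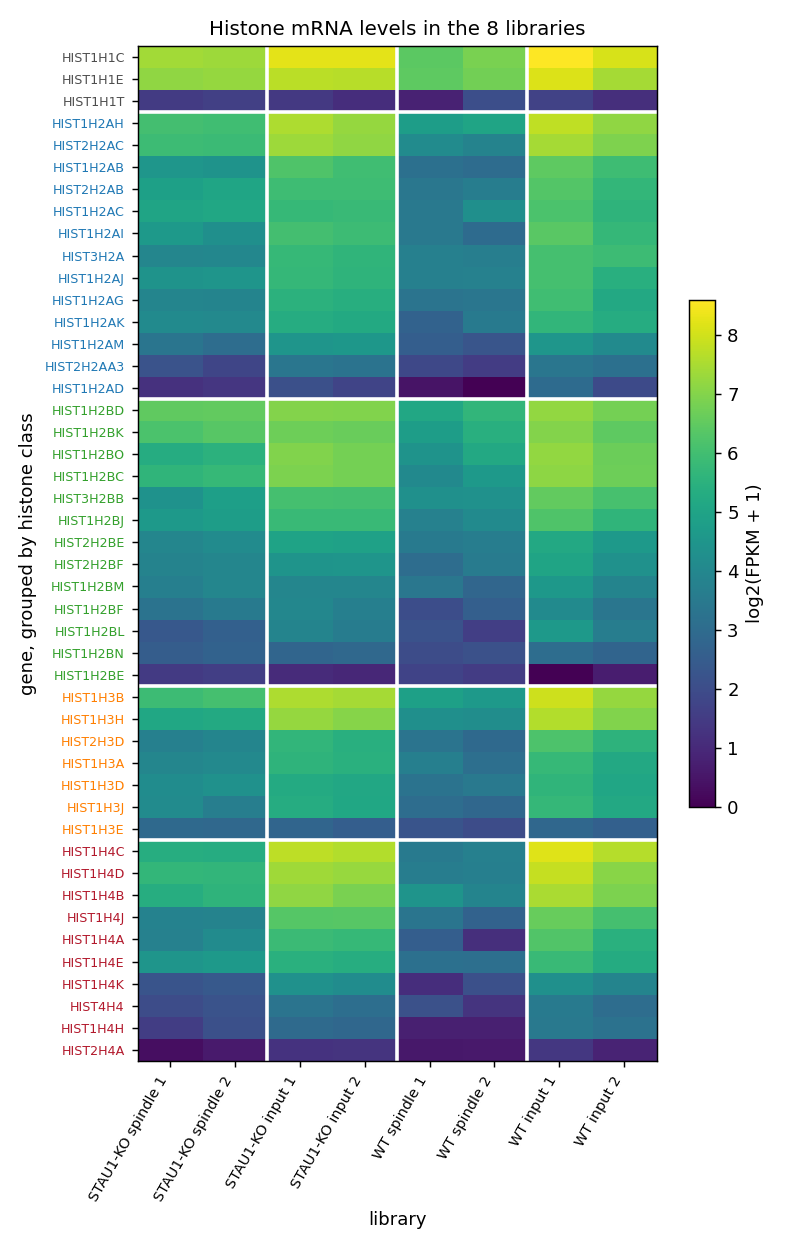
Level of each histone mRNA as log2(FPKM + 1) (colour) in the 8 libraries (columns), with genes (rows) grouped by histone class and sorted by mean level within a class. For 41 of the 46 genes both WT spindle libraries lie below both STAU1-KO spindle libraries, and WT input replicate 1 is above replicate 2 in 45 of 46 genes.

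In STAU1-KO cells, 34 of the 46 histone mRNAs were lower in spindles than in input and none was higher, at a limma adjusted p under 0.05. Of all 17217 genes tested, 27.1% were lower and 22.1% higher in the same comparison. The median log2 change of the 46 was -1.22, against -0.20 for tested coding genes. All libraries of the 2 groups were apart, with the spindle lower, for 43 of the 46, against 44.0% of all tested genes. In WT cells, 43 of the 46 were lower and 1 was higher, and of all tested genes 32.7% were lower and 27.6% higher. The median was -2.18, against -0.28 for tested coding genes, and the WT spindle and input libraries were apart for 44 of the 46, against 40.0% of all tested genes. Among tested coding genes, 21 of the 46 changes in STAU1-KO cells and 32 of the 46 in WT cells lay in the lowest 10%. In both genotypes 33 were called lower. The authors' deposited tables called 35 of the 46 lower in STAU1-KO cells and 42 lower in WT cells, and none higher in either.

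Short coding genes as a whole were also lower in spindles. The other coding genes in the shortest 10% by longest transcript (up to 1503 nt, 1129 genes without the histones) had a median log2 change of -0.85 in STAU1-KO cells and -1.20 in WT cells. Of these, 674 were called lower in STAU1-KO cells and 764 in WT cells. The histone medians of -1.22 in STAU1-KO cells and -2.18 in WT cells lay below these. The 2 sets were not matched for length, since the histone transcripts had a median of 496 nt. Among the 46 themselves, the longest listed transcript and the log2 change correlated with a Spearman rho of 0.52 in STAU1-KO cells and 0.58 in WT cells, as a description over 46 genes that share libraries. The 10 genes with a listed transcript over 1000 nt had medians of -0.84 in STAU1-KO cells and -1.52 in WT cells, and the other 36 had medians of -1.32 and -2.27 in the same order. The level in input also correlated with the log2 change, with a Spearman rho of -0.47 in STAU1-KO cells and -0.58 in WT cells. Changes of low genes are understated on the log2(FPKM + 1) scale. The parts of length and of level in these changes were not tested.

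Changes depended on the scale by a common shift. With equal coding sums in every library, the median change of all tested genes moved to 0.50 in STAU1-KO cells and 0.75 in WT cells, and the histone medians were -0.54 and -1.22 in that order. Relative to the median of all genes, the histone mRNAs stood at -1.04 in STAU1-KO cells and -1.96 in WT cells on that scale, against -1.19 and -2.18 as deposited. On that scale 14 were lower and 2 higher in STAU1-KO cells, against 1792 lower and 6891 higher of all 17337 genes tested. In WT cells 35 were lower and 1 higher, against 2145 lower and 9101 higher of all genes.

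Histone H4, the most conserved of the core histones, had the steepest falls. HIST1H4C, an H4 gene and the highest of its class by mean level, had 39.7 and 38.8 FPKM in STAU1-KO spindles, 214 and 194 FPKM in STAU1-KO input, 10.3 and 12.3 FPKM in WT spindles and 289.7 and 197 FPKM in WT input. No library of any group overlapped between spindle and input, and the lowest values were in WT spindles. Its log2 change from input to spindle was -2.34 ± 0.21 (SE, limma adjusted p = 0.000492) in STAU1-KO cells. In WT cells it was -4.29 ± 0.21 (limma adjusted p = 6.96e-05), the largest fall of the 46 there. Each SE rests on 1 spread pooled over the 4 groups, so it does not measure the spread within 1 genotype. HIST1H4D had 51.2 and 50.0 FPKM in STAU1-KO spindles, 164 and 154 FPKM in STAU1-KO input, 11.6 and 12.0 FPKM in WT spindles and 227 and 135 FPKM in WT input. It too was lowest in WT spindles and next lowest in STAU1-KO spindles, with log2 changes of -1.63 in STAU1-KO cells and -3.78 in WT cells. HIST1H4B stood at 40.2 and 47.2 FPKM in STAU1-KO spindles and 143 and 117 FPKM in STAU1-KO input. In WT cells it stood at 21.1 and 13.6 FPKM in spindles and 183 and 119 FPKM in input. Its log2 changes were -1.55 and -3.05 in the same order, and no spindle library reached an input library.

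HIST1H4J had the largest fall of the 46 in STAU1-KO cells. It measured 13.0 and 13.4 FPKM in STAU1-KO spindles, 80.1 and 80.9 FPKM in STAU1-KO input, 9.12 and 5.57 FPKM in WT spindles and 95.7 and 65.6 FPKM in WT input, a log2 change of -2.52 ± 0.25 in STAU1-KO cells (limma adjusted p = 0.000673) and -3.30 ± 0.25 in WT cells (adjusted p = 0.000163). Its coding sequence is identical to that of HIST1H4K, so reads of this pair may be split or lost and both values are uncertain. HIST1H4A fell by 1.86 on the log2 scale in STAU1-KO cells and by 3.99 in WT cells, where its spindle libraries held 4.97 and 1.24 FPKM. Of the H4 genes with a long listed transcript, HIST1H4E changed by -0.87 in STAU1-KO cells and -2.38 in WT cells, and HIST4H4, the member on chromosome 12, by -1.12 and -1.60. HIST1H4H, another of these, changed by -1.10 in STAU1-KO cells and -2.60 in WT cells. HIST2H4A was the exception: at 0.236 and 0.532 FPKM in STAU1-KO spindles and 1.38 and 1.45 FPKM in STAU1-KO input it was called lower in STAU1-KO cells (-0.81), while at 0.453 and 0.492 FPKM in WT spindles and 1.66 and 0.806 FPKM in WT input it did not pass (-0.57, limma adjusted p = 0.0737). It had at most 41 reads in a library and shares its sequence with another histone gene.

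The H3 genes encode the replication-coupled forms of the core histone that carries many regulatory marks. Of 7, 6 were lower in STAU1-KO spindles and 7 in WT spindles. HIST1H3B, the highest of them, had 58.6 and 66.4 FPKM in STAU1-KO spindles, 185 and 173 FPKM in STAU1-KO input, 28.6 and 23.5 FPKM in WT spindles and 243 and 150.0 FPKM in WT input. Both WT spindle libraries lay below both STAU1-KO spindle libraries, these below all input libraries, and the input groups overlapped. Its log2 change was -1.50 ± 0.25 (limma adjusted p = 0.00388) in STAU1-KO cells and -2.83 ± 0.25 (adjusted p = 0.000243) in WT cells. HIST1H3H had 34.1 and 36.2 FPKM in STAU1-KO spindles, 152 and 132 FPKM in STAU1-KO input, 18.6 and 17.6 FPKM in WT spindles and 195 and 126 FPKM in WT input. It had the largest falls of the class in both genotypes, -1.98 in STAU1-KO cells and -3.04 in WT cells. HIST1H3A, HIST1H3D, HIST1H3J and HIST2H3D changed by -1.53, -0.93, -1.33 and -1.71 in STAU1-KO cells and by -2.04, -1.99, -2.50 and -2.74 in WT cells.

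HIST1H3E departed from the rest of the class. It was low, at 6.71 and 6.49 FPKM in STAU1-KO spindles, 5.94 and 4.90 FPKM in STAU1-KO input, 3.69 and 3.01 FPKM in WT spindles and 6.25 and 5.25 FPKM in WT input. Its STAU1-KO spindle libraries lay above its STAU1-KO input libraries, and its WT spindle libraries below its WT input libraries. The log2 change was 0.25 ± 0.14 in STAU1-KO cells, which did not pass (limma adjusted p = 0.175), and -0.63 ± 0.14 in WT cells, which did (adjusted p = 0.00793). With equal coding sums it was among the 2 called higher in STAU1-KO cells, and its WT change was 0.187 (limma adjusted p = 0.482). Its stem-loop core was found in no other member, and between 6 and 36 reads per library stood behind these values.

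The H2A genes, partners of H2B in the nucleosome, fell in nearly every case: 11 of 13 in STAU1-KO spindles and 13 of 13 in WT spindles. HIST1H2AH, the highest, had 63.6 and 61.0 FPKM in STAU1-KO spindles, 185 and 149 FPKM in STAU1-KO input, 26.4 and 31.4 FPKM in WT spindles and 217 and 145 FPKM in WT input. Spindle and input did not overlap in either genotype, and the log2 changes were -1.40 ± 0.23 (limma adjusted p = 0.00392) in STAU1-KO cells and -2.58 ± 0.23 (adjusted p = 0.000265) in WT cells. HIST2H2AC had 58.4 and 56.6 FPKM in STAU1-KO spindles, 159 and 145 FPKM in STAU1-KO input, 16.6 and 13.2 FPKM in WT spindles and 175 and 120.4 FPKM in WT input. Its WT change of -3.21 was the largest of the H2A genes, and in STAU1-KO cells it changed by -1.39. HIST1H2AB and HIST2H2AB changed by -1.62 and -0.96 in STAU1-KO cells and by -3.08 and -2.48 in WT cells. HIST1H2AG, with a listed transcript of 2239 nt, changed by -1.57 in STAU1-KO cells and -2.24 in WT cells. HIST1H2AC, which has a transcript of 1668 nt that runs on past the stem-loop, had 31.6 and 34.2 FPKM in STAU1-KO spindles, against 52.7 and 55.8 FPKM in STAU1-KO input. This change did not pass (-0.71, limma adjusted p = 0.093), although the 2 groups did not overlap, and the WT change was -1.99.

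The H2B genes fell less. Of 13, 6 were lower in STAU1-KO spindles, while in WT spindles 12 were lower and 1 higher. HIST1H2BD, the highest, had 89.5 and 92.0 FPKM in STAU1-KO spindles, 129 and 124 FPKM in STAU1-KO input, 34.5 and 49.5 FPKM in WT spindles and 148 and 110.0 FPKM in WT input. Its log2 change was -0.47 ± 0.22 in STAU1-KO cells (limma adjusted p = 0.124) and -1.60 ± 0.22 in WT cells (adjusted p = 0.00139). HIST1H2BK had 71.2 and 82.0 FPKM in STAU1-KO spindles, 104 and 98.3 FPKM in STAU1-KO input, 26.7 and 41.5 FPKM in WT spindles and 128 and 87.5 FPKM in WT input. It resembled HIST1H2BD, with a change of -0.40 in STAU1-KO cells that did not pass (limma adjusted p = 0.252) and -1.64 in WT cells. HIST1H2BO and HIST1H2BC fell by 1.47 and 1.16 on the log2 scale in STAU1-KO cells and by 2.12 and 2.56 in WT cells.

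Of the H2B genes with long listed transcripts, HIST2H2BE changed by -0.89 in STAU1-KO cells and -1.34 in WT cells and passed in both. HIST1H2BF, HIST1H2BN and HIST2H2BF had values of -0.43, -0.24 and -0.56 in STAU1-KO cells, none of which passed, and fell by 1.44, 0.86 and 1.36 on the log2 scale in WT cells. HIST1H2BE was the 1 gene called higher in WT spindles, at 2.29 and 1.86 FPKM, against 0 and 0.610 FPKM in WT input (1.27 ± 0.24, limma adjusted p = 0.00481). In STAU1-KO cells it had 1.78 and 2.01 FPKM in spindles and 1.07 and 0.937 FPKM in input (0.53, adjusted p = 0.113). It had between 0 and 10 reads in a library, and its direction rests on these.

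The H1 genes encode the linker histones that bind where DNA enters and leaves the nucleosome. HIST1H1C and HIST1H1E were the most abundant histone mRNAs in the spindle preparations. HIST1H1C had 168 and 162 FPKM in STAU1-KO spindles, 304 and 304 FPKM in STAU1-KO input, 86.2 and 115 FPKM in WT spindles and 387 and 271 FPKM in WT input. It was lower in the spindles of both genotypes, with no overlap, at -0.87 ± 0.24 (limma adjusted p = 0.026) in STAU1-KO cells and -1.69 ± 0.24 (adjusted p = 0.00159) in WT cells. HIST1H1E had 145 and 149 FPKM in STAU1-KO spindles, 207 and 201 FPKM in STAU1-KO input, 87.6 and 107 FPKM in WT spindles and 281 and 175 FPKM in WT input. Its change passed in WT cells (-1.18) and not in STAU1-KO cells (-0.47, limma adjusted p = 0.167). HIST1H1T, known as a testis form, was near the detection limit at 1.83 and 2.07 FPKM in STAU1-KO spindles, 1.68 and 1.19 in STAU1-KO input, 0.784 and 3.19 in WT spindles and 2.23 and 1.25 in WT input. Both STAU1-KO spindle libraries lay above both STAU1-KO input libraries, the other pairs of groups overlapped, and it passed in no comparison.

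**Figure D3:**
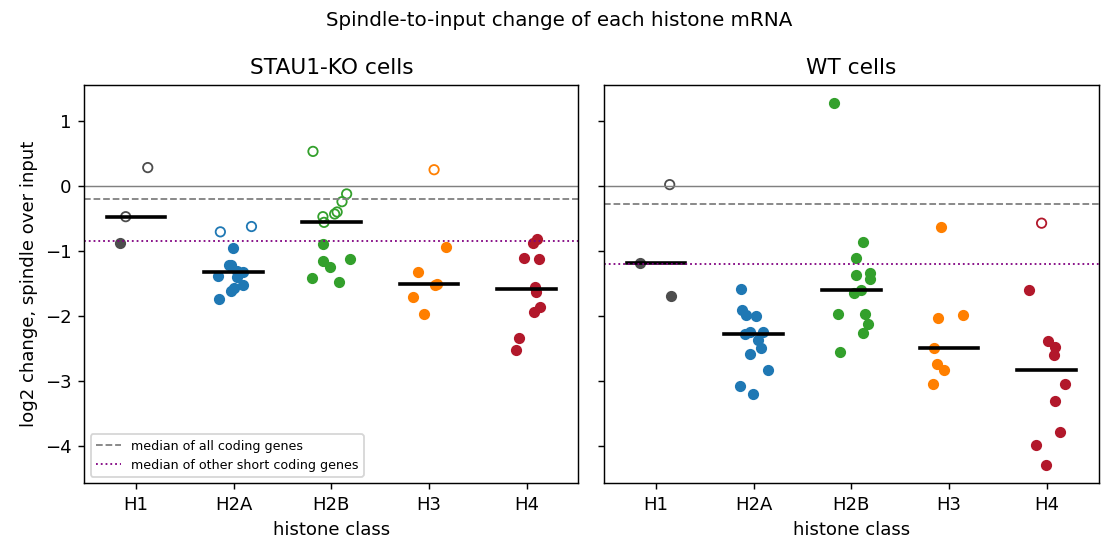
Log2 change from input to spindle (y axis) of each histone mRNA by class (x axis), in STAU1-KO cells (left) and WT cells (right). Filled points passed the limma test, bars are class medians, and the lines give the medians of all coding genes (-0.20 and -0.28) and of the other short coding genes (-0.85 and -1.20).

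The classes therefore kept one order in both genotypes, given here as values with no test. In STAU1-KO cells the median log2 changes were -0.47 for H1, -1.32 for H2A, -0.56 for H2B, -1.50 for H3 and -1.59 for H4. In WT cells they were -1.18 for H1, -2.27 for H2A, -1.60 for H2B, -2.50 for H3 and -2.83 for H4. With equal coding sums the medians of H1 and H2B in STAU1-KO cells changed sign, to 0.23 and 0.11, while those of H2A, H3 and H4 stayed below 0 at -0.69, -0.81 and -0.89. The make-up of the histone pool moved accordingly. H4 genes held 14.2% and 14.6% of the summed histone FPKM in STAU1-KO spindles, 22.5% and 22.1% in STAU1-KO input, 11.2% and 8.05% in WT spindles and 23.2% and 22.5% in WT input. H1 genes held 23.9% and 22.7% in STAU1-KO spindles, 15.6% and 16.7% in STAU1-KO input, 27.7% and 31.1% in WT spindles and 16.1% and 16.1% in WT input. These shares do not depend on the scaling between libraries, and for every class the 4 spindle libraries lay apart from the 4 input libraries. The H1 and H2B shares were higher in spindles, and the H2A, H3 and H4 shares were lower. The H2B share was 26.6% and 28.7% in STAU1-KO spindles, 21.3% and 21.7% in STAU1-KO input, 26.7% and 31.4% in WT spindles and 20.8% and 21.6% in WT input.

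Between genotypes, histone mRNAs passed in the spindle preparations and not in input. In spindles, 22 of the 46 histone mRNAs were higher in STAU1-KO than in WT cells and none was lower (limma, adjusted p under 0.05). Of all tested genes, 10.6% were higher and 5.52% lower. The median log2 difference was 0.81, against 0.09 for tested coding genes and 0.19 for the other short coding genes, of which 204 of 1129 were higher. Both STAU1-KO spindle libraries lay above both WT spindle libraries for 41 of the 46, against 31.8% of all tested genes, and 31 of the 46 differences were in the highest 10% of coding genes. The exceptions were HIST1H1T, HIST1H2BE, HIST2H2AA3, HIST2H4A and HIST4H4. The 22 calls covered 7 of 13 H2A, 4 of 13 H2B, 5 of 7 H3, 6 of 10 H4 and none of 3 H1 genes.

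The calls depended on which libraries were kept, while the histone median ranged from 0.81 to 0.90 with 1 spindle library left out. Without either STAU1-KO spindle library no histone mRNA passed, nor did any of the 17217 genes, and the histone medians were 0.81 without replicate 1 and 0.82 without replicate 2. In those fits the lone STAU1-KO spindle library was assumed to vary like the other groups. Without WT spindle replicate 1 the histone median was 0.86, against 0.06 for tested coding genes, and without replicate 2 it was 0.90, against 0.11. No input library enters this comparison, so dropping an input library could not move the histone median of 0.81. Such a fit could change only the pooled spread behind the calls. With limma weights for libraries, which gave the WT spindle libraries 0.19 against 1.25 to 2.63 for the others, none passed. Of the 17217 genes, 235 were higher and 39 lower in that fit. With equal coding sums 15 were higher, against 1142 of 17337 genes tested. The histone median was then 0.65, while the median of all tested genes stood at -0.13.

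HIST1H4D and HIST2H2AC had the largest called differences after HIST1H4A. For HIST1H4D, whose spindle values are given above, the log2 difference between STAU1-KO and WT spindles was 2.01 ± 0.24 (limma adjusted p = 0.00808). HIST2H2AC differed by 1.89 ± 0.21 (adjusted p = 0.00735) and HIST1H4C by 1.72 ± 0.21 (adjusted p = 0.00819). For these 3 genes every STAU1-KO spindle library lay above every WT spindle library. HIST1H4A, at 12.6 and 16.8 FPKM in STAU1-KO spindles, against 4.97 and 1.24 FPKM in WT spindles, differed by 2.09 ± 0.48 (limma adjusted p = 0.0357), with a wide spread between the WT libraries. The other H4 genes that passed were HIST1H4B (1.31), HIST1H4E (1.38) and HIST1H4H (1.08). In the WT spindle libraries HIST1H4H had 5 and 3 reads and HIST1H4A had 13 and 2, so both differences rest on few reads.

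Among H2A genes, HIST2H2AB stood at 28.5 and 32.1 FPKM in STAU1-KO spindles, against 9.51 and 11.4 FPKM in WT spindles, a log2 difference of 1.45 ± 0.21 (limma adjusted p = 0.0115). HIST1H2AB, at 21.9 and 20.4 FPKM in STAU1-KO spindles and 8.04 and 7.28 FPKM in WT spindles, differed by 1.36. The remaining H2A calls were HIST1H2AC (1.19), HIST1H2AH (1.09), HIST1H2AI (1.20) and HIST1H2AM (0.79), and the last pair share most of their sequence with another histone gene. Of the H2B genes, HIST1H2BC had 47.9 and 53.3 FPKM in STAU1-KO spindles, against 15.8 and 24.1 FPKM in WT spindles (1.32 ± 0.24, adjusted p = 0.0191). HIST1H2BD differed by 1.12, HIST1H2BK by 1.17 and HIST1H2BN by 0.55. These 4 H2B genes each have more than 1 annotated exon, and none of the 7 H2B genes with 1 exon passed, with medians of 0.94 for the 6 genes with several exons and 0.61 for the 7.

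Among H3 genes, HIST1H3B differed by 1.23 ± 0.25 (limma adjusted p = 0.0252) between STAU1-KO and WT spindles. HIST1H3E, at 6.71 and 6.49 FPKM in STAU1-KO spindles and 3.69 and 3.01 FPKM in WT spindles, differed by 0.81 ± 0.14 (adjusted p = 0.0169). HIST1H3D (0.89), HIST1H3H (0.92) and HIST1H3J (0.93) also passed. The 2 abundant H1 genes did not: HIST1H1C differed by 0.72 (limma adjusted p = 0.0907) and HIST1H1E by 0.59 (adjusted p = 0.157), although their STAU1-KO libraries lay above their WT libraries. Among the 4 genes of highest mean FPKM in each core histone class, HIST1H2BO at 0.61 (limma adjusted p = 0.202) and HIST1H4J at 0.80 (adjusted p = 0.0767) did not pass. Nor did HIST1H3A at 0.56 and HIST2H3D at 0.69. Other genes at similar levels did not pass either. Among them were HIST3H2A (0.26), HIST3H2BB (0.29), HIST1H2AJ (0.70) and HIST1H2BJ (0.76), named after their values were seen. HIST2H2BE, HIST2H2BF, HIST1H2BF and HIST1H2AG did not pass either, with differences between 0.47 and 1.10.

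**Figure D4:**
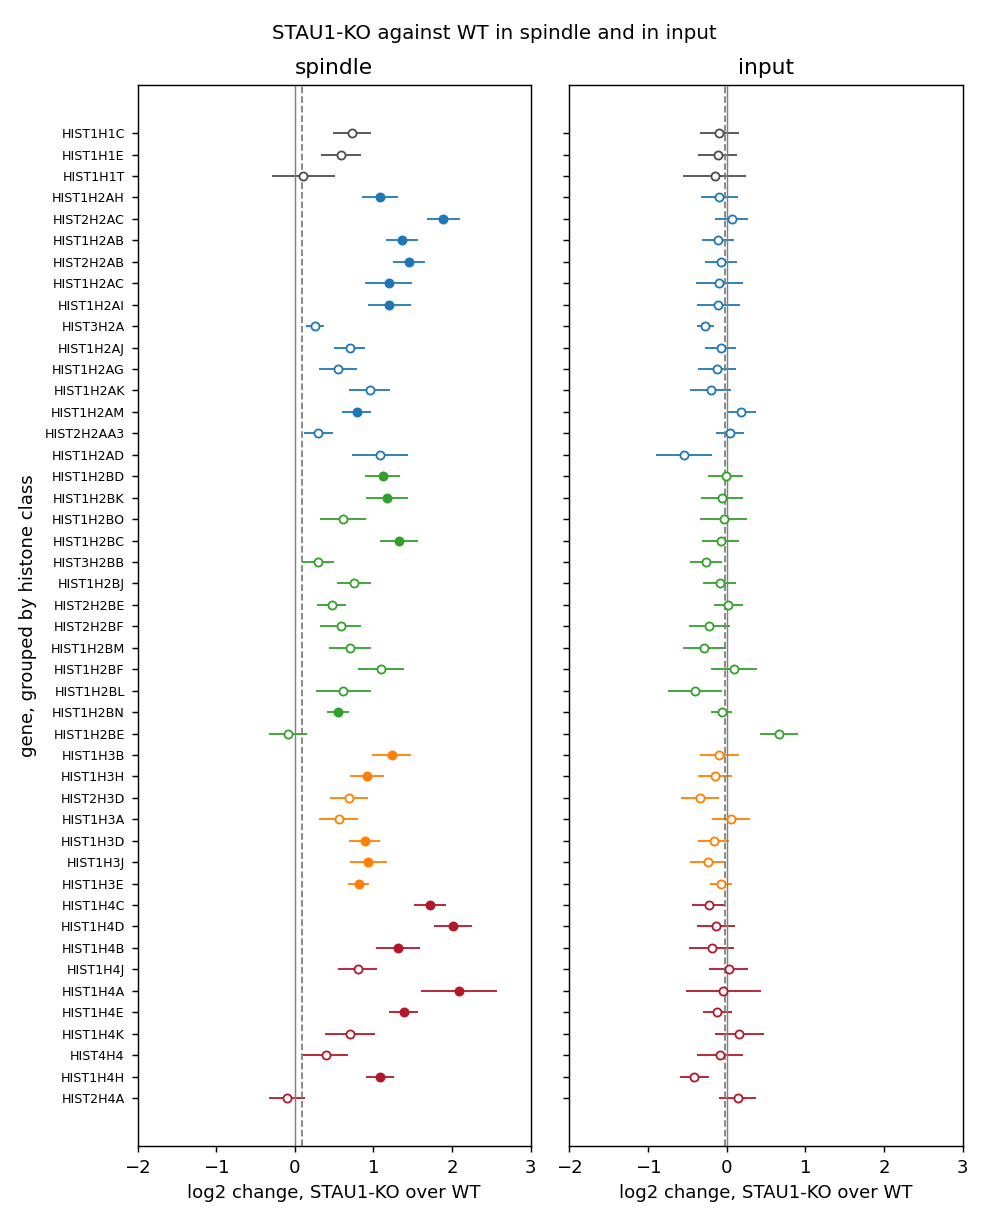
Log2 difference between STAU1-KO and WT cells (x axis, with its SE) for each histone mRNA (y axis), in spindles (left) and input (right). Filled points passed the limma test and the dashed line is the median of tested coding genes; 22 of 46 passed in spindles and none in input.

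In whole-cell input no histone mRNA passed between genotypes in limma, nor by limma-voom on recovered reads. In limma 2 had an unadjusted p under 0.05, against 1522 of all 17217 tested genes. Of all tested genes 0.192% were called in either direction. The median log2 difference of the 46 was -0.09, against -0.02 for tested coding genes, with a range of -0.54 (HIST1H2AD) to 0.66 (HIST1H2BE), both genes of few reads. HIST1H4C, for example, differed by -0.23 ± 0.21 (limma adjusted p = 0.838), and its input libraries overlapped between genotypes. The 2 WT input libraries were unlike each other for these genes: replicate 1 exceeded replicate 2 in 45 of the 46, with a median ratio of 1.48, against 1.02 for coding genes. The same ratio was 0.90 in STAU1-KO spindles, 1.08 in STAU1-KO input and 0.97 in WT spindles. The input medians were 0.18 without WT input replicate 1 and -0.38 without replicate 2, so the sign of the input difference depended on which was kept. Summed S-phase genes were 1038 and 1007 FPKM in STAU1-KO input and 1138 and 1045 FPKM in WT input, and their part in the replicate difference was not tested.

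The spindle-to-input change itself was then compared between genotypes. It was less negative in STAU1-KO than in WT cells for 44 of the 46, all but HIST1H2BE and HIST2H4A, with a median difference of 1.01 on the log2 scale, against 0.09 for coding genes and 0.29 for the other short coding genes. No histone mRNA passed this test in limma, in which 16 of 17217 genes (0.0929%) did. At an unadjusted limma p under 0.05 there were 29, against 3485 of all 17217 tested genes. Limma-voom on recovered reads called 5, against 396 of all tested genes. The largest differences were 2.15 ± 0.34 for HIST1H4D (limma adjusted p = 0.0575), 2.13 ± 0.68 for HIST1H4A (0.164) and 1.95 ± 0.29 for HIST1H4C (0.0562). By class the medians were 0.71 for H1, 1.18 for H2A, 0.85 for H2B, 1.05 for H3 and 1.50 for H4. The H1 and H2B medians were 0.37 and 0.53 without WT input replicate 1, and 1.05 and 1.14 without WT input replicate 2. With equal coding sums the H1 median was 0.42. Over all 46, the median difference was 0.91 with WT spindle replicate 1 dropped, against 0.06 for tested coding genes. With WT spindle replicate 2 dropped it was 1.03, against 0.11. Among the fits with 1 library dropped it was lowest, at 0.68, for WT input replicate 1 and highest, at 1.32, for WT input replicate 2. The genes that fell most in one genotype also fell most in the other (Pearson r = 0.86, Spearman rho = 0.81 over 46 genes, as a description). The 2 genotypes share no library in these changes, but both hold the same assay and annotation.

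**Figure D5:**
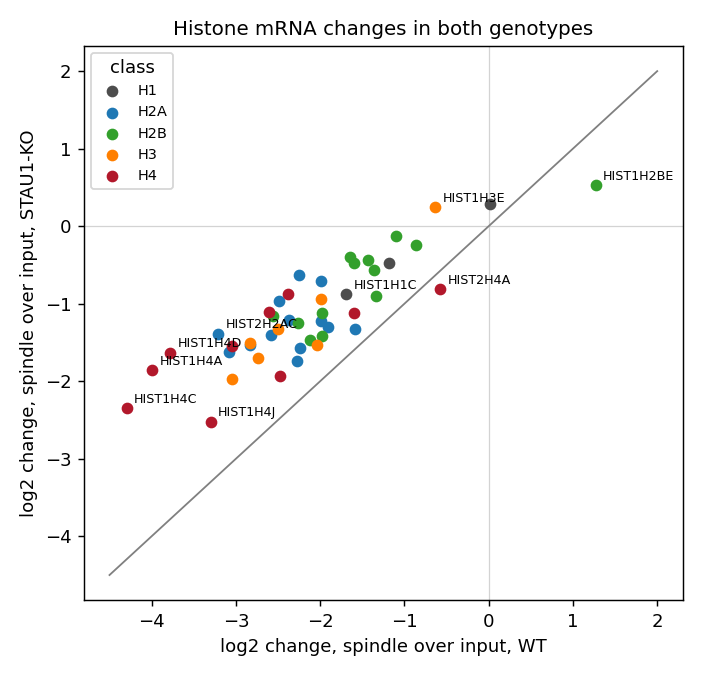
Log2 change from input to spindle in STAU1-KO cells (y axis) against that in WT cells (x axis), 1 point per histone mRNA, coloured by class, with the line of equal change. All genes but HIST1H2BE and HIST2H4A lie above the line.

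Histone genes share sequence, so the values of near copies are uncertain. For 8 members (HIST1H2AI, HIST1H2AJ, HIST1H2AM, HIST1H4J, HIST1H4K, HIST2H2AA3, HIST2H3D and HIST2H4A) more than 50% of the 75-base windows were found in another histone gene. Among the other 38, chosen after the data were seen, 26 were lower in STAU1-KO spindles, 36 were lower in WT spindles, and 20 were higher in STAU1-KO than in WT spindles. Whether counting used strand is not given in the sources used here, so overlapping antisense transcripts cannot be told apart.

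Replication-independent histone variants, which are made outside S phase from polyadenylated mRNAs, served as the nearest comparison. Of 11 listed, 10 were lower in STAU1-KO spindles with a median log2 change of -1.05, and 11 in WT spindles with a median of -1.27. Between STAU1-KO and WT spindles 2 were higher and 1 lower, with a median of 0.25. CENPA, the centromeric histone, had 5.00 and 4.91 FPKM in STAU1-KO spindles, 22.0 and 21.6 FPKM in STAU1-KO input, 4.16 and 4.90 FPKM in WT spindles and 20.3 and 20.2 FPKM in WT input. Its spindle libraries lay close together, and its log2 change was -1.94 in STAU1-KO cells and -1.95 in WT cells. H2AFV, an H2A variant gene, changed by -1.57 in STAU1-KO cells and -1.59 in WT cells. The genes higher in STAU1-KO than in WT spindles were H3F3A (1.03, limma adjusted p = 0.0119) and H2AFJ (0.59, adjusted p = 0.0255), and the lower one was H2AFY (-0.48, adjusted p = 0.0182). The difference between the variants and the replication-dependent genes was not tested.

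Genes that make, process or degrade histone mRNAs did not move as one. Of 25 listed, 3 were higher and 12 lower in STAU1-KO spindles than in input, and 5 were higher and 14 lower in WT spindles. SLBP, which binds the stem-loop, had 32.0 and 30.2 FPKM in STAU1-KO spindles, 66.6 and 67.8 FPKM in STAU1-KO input, 19.8 and 38.6 FPKM in WT spindles and 83.2 and 74.2 FPKM in WT input, and was lower in spindles in both (-1.09 and -1.47). It did not pass between genotypes in spindles (0.16, limma adjusted p = 0.73). NPAT, the activator of histone transcription, was higher in STAU1-KO spindles than in input (0.61, limma adjusted p = 0.00937), and its change in WT cells did not pass (0.26, adjusted p = 0.127). LSM1, of the decapping-linked LSM ring, fell by 2.24 on the log2 scale in STAU1-KO cells and by 2.63 in WT cells. CDK2, the kinase that acts on NPAT, fell by 1.32 in STAU1-KO cells and by 1.44 in WT cells. NCBP2, of the nuclear cap-binding complex, changed by -1.13 in STAU1-KO cells and -1.61 in WT cells, and CPSF2, of the cleavage complex, by -0.81 in STAU1-KO cells and -1.57 in WT cells. The terminal uridylyl transferase genes ZCCHC11 and ZCCHC6 were higher in spindles in both genotypes, ZCCHC11 by 1.00 in STAU1-KO cells and 0.90 in WT cells. Between STAU1-KO and WT spindles CPSF2 (0.61), CCNE2 (0.63) and CSTF2T (0.56) were higher and E2F1 (-0.46) was lower. The U7 RNA gene RNU7-1 was not analysed here.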

How the data were processed

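Total RNA depleted of ribosomal RNA was sequenced from 8 libraries in 4 groups of 2. Per the submitters' processing notes, FastQC, TopHat, featureCounts and DESeq2 were used with GRCh37; no versions or other settings are given in the sources used here. The authors' deposited expression table gives FPKM per library, scaled by the authors between libraries, a TPM value for each group and GC content in percent; the TPM and percent values were not used. The authors' deposited comparison tables give a base mean (a normalised signal), log2 fold changes, Wald scores and raw and adjusted p-values.

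FPKM values were tested as log2(FPKM + 1) with limma 3.58.1 in R 4.3.3, since the deposited table holds no counts. Fold changes are on this scale, which understates changes of low genes. Genes with FPKM of at least 1 in at least 2 libraries (17217 genes, all 46 histone genes among them) entered 1 fit of the 4 group means, two-sided, with a variance trend, 4 residual and 2.25 prior degrees of freedom. The spread of a gene was pooled over the 4 groups, which took them as equally variable. The library weights, lower for more variable libraries, were 0.19 for WT spindles and 1.25 for WT input. For STAU1-KO they were 1.61 in spindles and 2.63 in input. A call in 1 genotype and not in the other therefore does not compare their spreads. P-values were adjusted over all tested genes by the Benjamini-Hochberg method and called under 0.05. There were 5 comparisons: STAU1-KO over WT in spindles and in input, spindle over input within each genotype, and the STAU1-KO minus WT difference between those changes. With 2 libraries a group, an exact permutation test of 1 comparison could not pass and was not used.

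Reads were recovered by scaling FPKM with the base means. All values (100%) fell within 0.01 of a whole number. They gave depths and 1 alternative test. The fit was also run on simulated data with 200 genes changed in WT spindles. The simulation gave all groups the same spread, so it cannot show how the fit behaves with groups of unequal spread.

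The members, lists and tests were chosen with earlier results of these data known. In each class the 4 genes of highest mean FPKM, genes with transcripts over 1000 nt, genes called between genotypes or against the common direction, and the extremes were named, with up to 4 genes of smallest p from each list of processing genes, variants, chaperones, S-phase, mitotic and nuclear RNAs. Other genes, which counts of 5 or fewer or an extreme singled out, were named after their values were seen.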

Additional observations from a re-analysis of the deposited data

How the results depend on the processing

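The 43 histone mRNAs called lower in WT spindles ranged from 35 to 44 over the settings that kept all libraries. The 35 were with equal coding sums, where 2145 of 17337 genes were lower. With 1 library left out the median log2 change of the 46 ranged from -2.38 to -1.77. The 34 lower in STAU1-KO spindles became 14 with equal coding sums and ranged from 22 to 36 with 1 library left out. The 22 higher in STAU1-KO than in WT spindles became 0 with library weights and ranged from 0 to 26 with 1 library left out. None differed in input in any setting. With library weights, 39 of the 46 were lower in WT spindles and 38 in STAU1-KO spindles, where 1 was higher. Of all 17217 genes, 4477 and 6401 were lower in that fit in the same order. The call counts of the 2 genotypes were thus close with weights, while the histone medians stayed at -2.18 and -1.22. For the difference of changes the count moved from 0 to 2 with equal coding sums, 1 with a pseudocount of 0.1, 7 with FPKM of at least 5, 8 with coding genes alone and 5 with voom, and from 0 to 18 with 1 library left out. The causes were not tested. Where summed class levels were set against coding FPKM, the log2 change in STAU1-KO cells was 0.00889 for H1 (reversed from -0.70), -0.65 for H2A, -0.16 for H2B, -0.86 for H3, -1.15 for H4 and -0.52 for all 46. In WT cells it was -0.46, -1.62, -0.88, -1.72, -2.60 and -1.33 in the same class order. As a share of recovered reads, the STAU1-KO changes were -0.51 for H1, -1.12 for H2A, -0.60 for H2B, -1.33 for H3, -1.48 for H4 and -0.89 for all. HIST1H3E in WT cells turned to 0.187 with equal coding sums (limma adjusted p = 0.482). Same-numbered replicates did not deviate together (correlations of -0.05 to 0.02 over 6 group pairs). With the replicate number as a block, 43 were lower in WT spindles, 34 in STAU1-KO spindles and 16 higher in STAU1-KO than in WT spindles. Of the 17217 genes, 5412, 4385 and 1224 were called in the same order. Depth limits HIST1H1T, HIST1H2AD, HIST1H2BE and HIST2H4A, which have few reads, and 2 libraries a group limit every comparison. Few reads in WT spindles also limit genes such as HIST1H4A and HIST1H4H.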

Other observations

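Histone chaperones, the proteins that carry histones to DNA, were lower in WT spindles than in input for 10 of 14 genes and in STAU1-KO spindles for 4 of 14. Between STAU1-KO and WT spindles 4 of 14 were higher and none was lower: NASP (1.02), RBBP4 (0.82), ANP32E (0.81) and ASF1A (0.67), on the log2 scale and by limma. NASP, which binds H1 and H3, had 24.4 and 23.5 FPKM in STAU1-KO spindles, 27.3 and 27.8 FPKM in STAU1-KO input, 9.54 and 13.3 FPKM in WT spindles and 29.7 and 28.0 FPKM in WT input. Its STAU1-KO spindle libraries were close to input, and its WT spindle libraries were below every other. The medians of the list were -0.30 in STAU1-KO cells and -1.08 in WT cells.

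Among 22 S-phase genes, 2 were higher and 8 lower in STAU1-KO spindles than in input, and 1 was higher and 13 lower in WT spindles. Between STAU1-KO and WT spindles 4 were higher and none was lower. POLE, a DNA polymerase subunit, rose in spindles in both, by 0.82 in STAU1-KO cells and 1.30 in WT cells. UNG and RRM2 fell in both, and RRM2 had a log2 change of -1.33 in STAU1-KO cells and -1.94 in WT cells. Of 10 mitotic genes, 4 were lower in STAU1-KO spindles, 7 were lower in WT spindles, and 2 (KIF11 and CENPE) were higher in STAU1-KO than in WT spindles. The nuclear RNAs NEAT1 and MALAT1 ran the other way, with log2 changes of 4.68 and 2.20 in STAU1-KO cells and 4.86 and 2.34 in WT cells.

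The histone pseudogene HIST1H3PS1 was as abundant as many of the coding genes, with 12.1 and 10.8 FPKM in STAU1-KO spindles, 27.4 and 25.4 FPKM in STAU1-KO input, 9.20 and 14.4 FPKM in WT spindles and 42.9 and 42.9 FPKM in WT input. It was lower in spindles in both genotypes (-1.14 and -1.81) and did not differ between STAU1-KO and WT spindles beyond the spread (-0.01 ± 0.20, limma adjusted p = 0.971). HIST1H2APS3 was listed at 0 in both STAU1-KO groups and in WT input, and at 1.06 and 1.73 FPKM in WT spindles. Both pseudogenes were chosen after their values were seen.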
